A study of Homo sapiens with 6 samples.

Results

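The HOX genes encode the homeodomain transcription factors that lie in the 4 HOX clusters, HOXA on chromosome 7, HOXB on chromosome 17, HOXC on chromosome 12 and HOXD on chromosome 2. The members were chosen by name and biotype, as every protein-coding row whose symbol is HOXA, HOXB, HOXC or HOXD followed by a number. This gave 39 genes of 58735 in the table, 11 in HOXA, 10 in HOXB, 9 in HOXC and 9 in HOXD. RNA sequencing was done on NCI-N87, an established human gastric carcinoma cell line that grows as an epithelium. Cells were transduced with a lentivirus, either the empty pSIH-H1-puro vector (labelled shNC, the shCtrl cells of the study) or the same vector with 1 short hairpin RNA against SCAMP1 (labelled shScamp1, the shS1#1 cells), and both were selected with puromycin at 2 µg/ml. SCAMP1 is a membrane protein of secretory and endocytic vesicles, and the comparison asks how its depletion changes the transcriptome. Each group had 3 libraries, which the labels call biological replicates. The study's methods leave RNA sequencing out of the independently repeated experiments, and the sources do not say whether the libraries came from separate transductions, so the p-values measure the spread between these libraries, which may be technical. With 1 hairpin, an effect of SCAMP1 loss and an effect of the hairpin on other transcripts cannot be told apart.

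HOX proteins specify position along the body axis of the embryo, and their genes stand in each cluster in the order in which they are used from head to tail. Genes at the same place in different clusters descend from 1 ancestral gene and share a paralogue number, from 1 at the anterior end to 13 at the posterior end. Each protein binds DNA through a homeodomain, mostly together with TALE cofactors of the PBX and MEIS families. In the adult, epithelia of the gut keep part of the embryonic pattern, and trithorax and polycomb complexes hold the clusters in open or closed chromatin. Retinoic acid is a classical inducer of the anterior genes of a cluster.

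SCAMP1 itself stood at 12.6, 12.1 and 11.5 FPKM (fragments scaled to transcript length and to library size) in the 3 shNC libraries and at 1.70, 1.37 and 1.99 FPKM in the 3 shScamp1 libraries, so that 14.0% of its level was left (log2 fold change -2.78, adjusted p = 0.000248). The files gave 15064905 to 15988700 reads on genes per shNC library and 14311769 to 14667628 per shScamp1 library. One shScamp1 library, replicate 2, stood apart, since mitochondrial genes took 9.21% of its reads against 6.09% to 6.78% in the other 5, and results that rest on it are given without it as well. KRT8, KRT18 and KRT19, keratins of simple epithelia, were at 867 FPKM or more in every library, whereas the gastric markers CLDN18, TFF1 and TFF2 were listed at no more than 0.165 FPKM. The 15 markers of blood, endothelial, stromal, muscle, neuronal, liver and red cells summed to between 1.73 and 2.16 FPKM per library, and 4 of them were listed at 0 throughout.

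The homeobox is the 180-base stretch that encodes the DNA-binding homeodomain. Those of HOXB6 and HOXB7, which passed the test between the groups, are shown with that of HOXB9, a gene of the same cluster that did not pass, because the similarity of these genes bears on whether a read can be assigned to 1 of them. Each is written 5′ to 3′ on the coding strand of GRCh38, from the GENCODE 29 coding sequence, and the capitals mark bases 124 to 174, which encode the recognition helix that lies in the major groove of DNA.
HOXB6 homeobox, chr17:48596473-48596652, strand minus: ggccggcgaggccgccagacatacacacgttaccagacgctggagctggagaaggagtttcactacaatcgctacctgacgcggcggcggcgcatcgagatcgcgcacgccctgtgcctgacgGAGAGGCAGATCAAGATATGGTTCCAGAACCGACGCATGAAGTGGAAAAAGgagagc
HOXB7 homeobox, chr17:48607908-48608087, strand minus: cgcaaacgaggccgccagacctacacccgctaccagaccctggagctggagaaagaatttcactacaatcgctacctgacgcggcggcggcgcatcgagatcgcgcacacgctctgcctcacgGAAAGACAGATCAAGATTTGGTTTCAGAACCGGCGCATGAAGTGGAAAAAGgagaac
HOXB9 homeobox, chr17:48622921-48623100, strand minus: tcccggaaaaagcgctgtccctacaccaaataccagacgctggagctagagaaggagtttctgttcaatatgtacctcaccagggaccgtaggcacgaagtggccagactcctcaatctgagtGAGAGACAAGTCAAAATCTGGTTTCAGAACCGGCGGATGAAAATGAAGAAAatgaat

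HOXB6 and HOXB7 shared 88.9% of these bases, while HOXB7 and HOXB9 shared 62.2%. Over the 210 pairs of the HOX genes tested below, homeobox identity ran from 49.4% to 90.6% with a median of 63.6%. The longest identical run between the exons of any such pair that does not share an exon was 51 bases, between HOXB6 and HOXB7. Reads longer than that run can be assigned to 1 of the genes, and the read length is not given in the sources used here. Exons are also shared by position. Of the exon bases of HOXB6, 16.6% also belong to HOXB3 on the same strand and 16.3% to the antisense transcript HOXB-AS3, and 67.1% belong to HOXB6 alone. HOXB5 shares 3.58% of its exon bases with HOXB-AS3 on the opposite strand, and HOXB7, HOXB8 and HOXB9 share none with any annotated gene.

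A HOX gene was called on where it reached 0.5 FPKM in each of the 3 shNC libraries. By this rule 19 of the 39 genes were on, 16 were detected below it and 4 were listed at 0 in all 6 libraries. The on genes were 7 of 11 in HOXA, 5 of 10 in HOXB, 7 of 9 in HOXC and none in HOXD. By position they were 3 of 8 genes in paralogue groups 1 to 3, 8 of 15 in groups 4 to 8 and 8 of 16 in groups 9 to 13, so on genes were found in all 3 stretches of the clusters. Within a cluster the pattern was broken: in HOXB the genes 3, 5, 6, 7 and 9 were on, while gene 4 (0.410 ± 0.0886 FPKM, SD, n = 3 shNC libraries) and gene 8 (0.675 ± 0.156 FPKM, with 1 library at 0.497 FPKM) were not.

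**Figure D1:**
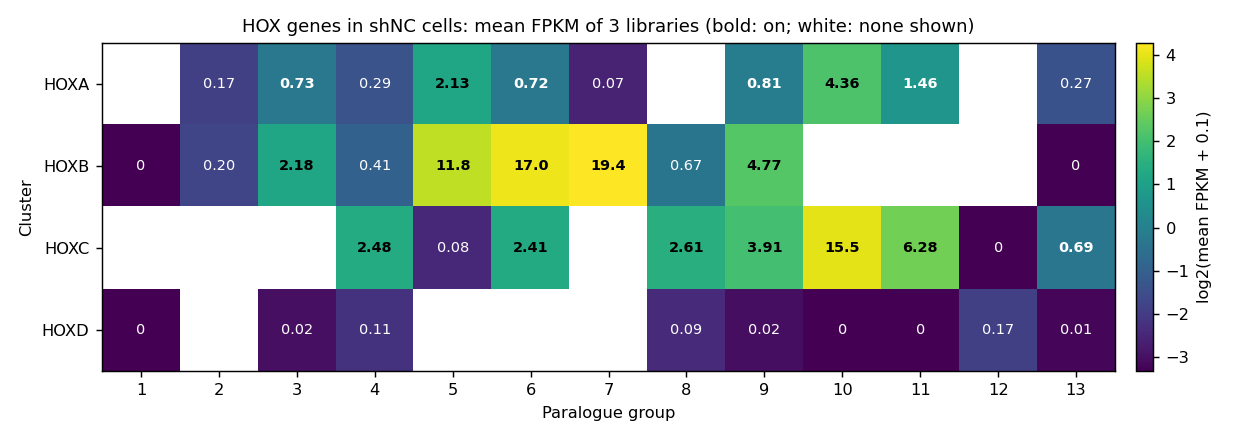
Mean FPKM of the 3 shNC libraries for 38 of the HOX genes, by cluster (rows) and paralogue group (columns), with colour on a log2 scale, bold numbers for genes that were on, and white where no gene is shown. HOXB5 to HOXB7 and HOXC10 are the genes above 10 FPKM, and the HOXD row stays at or under 0.17 FPKM.

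HOXB7 stood highest in shNC cells at 19.4 ± 0.0401 FPKM (SD, n = 3), followed by HOXB6 at 17.0 ± 1.44 FPKM, HOXC10 at 15.5 ± 0.515 FPKM and HOXB5 at 11.8 ± 0.789 FPKM. FPKM is a level per length. How reads on shared exons were counted is not given, and HOXB6 shares 32.9% of its exon bases while HOXB7 shares none, so the order of these 2 genes is that of the listed values only. HOXB6 and HOXC10 overlapped across the libraries (HOXB6 in shNC replicates 1 to 3 at 17.1, 15.5 and 18.4 FPKM, HOXC10 at 15.1, 16.1 and 15.4 FPKM), whereas the lowest value of HOXB7 lay above the highest of HOXB6. The next genes were HOXC11 at 6.28 ± 0.406 FPKM, HOXB9 at 4.77 ± 0.210 FPKM, HOXA10 at 4.36 ± 0.617 FPKM and HOXC9 at 3.91 ± 0.398 FPKM. HOXB9 and HOXA10 overlapped, and so did HOXA10 and HOXC9. The other on genes had shNC means of no more than 2.61 FPKM (HOXC8).

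HOXD was the cluster with the lowest output. No HOXD gene exceeded 0.234 FPKM or 5 reads in any library, and the 9 genes together gave 67 reads over the 6 libraries. HOXD1 and HOXD11 were listed at 0 in all 6. HOXD12 was the highest, at 0.234, 0.178 and 0.0962 FPKM in shNC and 0.102, 0.217 and 0.0508 FPKM in shScamp1, which overlap. HOXD3, HOXD4, HOXD8, HOXD9, HOXD10 and HOXD13 each had at least 1 read in some library, and no HOXD gene passed the filter for a test. HOXB13 and HOXC12, posterior genes of their clusters, were also listed at 0 in all 6 libraries. Of the remaining genes below the threshold, HOXA2, HOXA4, HOXA7, HOXA13, HOXB1, HOXB2 and HOXC5 had at most 27 reads in a library and were not tested. HOXA13, the most posterior gene of its cluster, was the deepest of these, with 27, 21 and 19 reads in shNC and 5, 15 and 8 reads in shScamp1.

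To compare shScamp1 with shNC cells, limma was fitted to log2(FPKM + 0.1) over the 15556 genes whose mean reached 0.5 FPKM, with Benjamini-Hochberg adjustment over all of them. The test included 21 HOX genes, 7 in each of HOXA, HOXB and HOXC, and so 18 members were not tested. At an adjusted p under 0.05, 3 of the 21 passed, which is 14.3% against 14.0% of all genes tested. All 3 were higher in shScamp1 cells, where 8.82% of all genes were called higher and 5.17% lower. The share of HOX genes called was thus near that of all genes. It was 1 of 21 without shNC replicate 2 and 6 of 21 without shScamp1 replicate 2. The number of all genes called moved too, to 817 and 4374 in these fits, from 2177 with all 6 libraries. Higher calls were 63.0% of all calls, and 47.3% when FPKM was rescaled to total reads. None of the 21 passed with an absolute log2 fold change above 1, which 3.16% of all genes did, while 6 had an unadjusted p under 0.05. The groups did not overlap for 8 HOX genes (38.1%), 6 higher and 2 lower, against 41.4% of all genes. The median log2 fold change was -0.04 over the 21 and -0.02 over all genes tested, with 10 HOX genes above 0 and 11 below.

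HOXB5, HOXB6 and HOXB7, 3 adjacent genes in the middle of HOXB, were the genes that passed. In the embryo HOXB5 acts in the foregut and its nerve cells, HOXB6 in blood and limb progenitors and HOXB7 in the trunk, and HOXB7 is known for its activity in carcinomas.

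HOXB5 (ENSG00000120075, chr17:48591257-48593961) stood at 11.3, 11.4 and 12.7 FPKM in shNC replicates 1 to 3 and at 18.9, 16.4 and 18.3 FPKM in shScamp1 replicates 1 to 3. Every shScamp1 library lay above every shNC library, and replicate 2 was the lowest of the shScamp1 libraries. The means were 11.8 ± 0.789 and 17.9 ± 1.31 FPKM (SD, n = 3 each), a ratio of 1.51, and the log2 fold change was 0.59 ± 0.09 (SE, 95% interval 0.39 to 0.80, limma adjusted p = 0.00811). The adjusted p was 0.0501 without shNC replicate 2 and 0.00162 without shScamp1 replicate 2. In bulk RNA, a change in the RNA of every cell and a change in the share of cells that express the gene cannot be told apart.

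HOXB6 (ENSG00000108511, chr17:48595751-48604992) stood at 17.1, 15.5 and 18.4 FPKM in shNC and at 27.8, 24.1 and 28.3 FPKM in shScamp1. The groups again did not overlap, and shScamp1 replicate 2 was again the lowest of its group. The log2 fold change was 0.65 ± 0.10 (SE, 95% interval 0.42 to 0.89, limma adjusted p = 0.00923), with means of 17.0 ± 1.44 and 26.7 ± 2.31 FPKM. This gene stayed under 0.05 with every library left out in turn, at 0.72 (adjusted p = 0.00193) without shScamp1 replicate 2. Its highest limma adjusted p over all settings tried was 0.0495, close to the threshold.

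HOXB7 (ENSG00000260027, chr17:48607227-48633572) stood at 19.5, 19.4 and 19.4 FPKM in shNC, a spread of less than 1 FPKM, and at 32.8, 24.6 and 28.8 FPKM in shScamp1, where the libraries lay further apart. It rose by a log2 fold change of 0.55 ± 0.11 (SE, 95% interval 0.29 to 0.81, limma adjusted p = 0.0224), from 19.4 ± 0.0401 to 28.7 ± 4.07 FPKM. Its call was lost without any one of the 3 shNC libraries and without shScamp1 replicate 3, with adjusted p-values up to 0.0931, and without shScamp1 replicate 2 the log2 fold change was 0.66 (adjusted p = 0.00136). The exact two-sided permutation test gave p = 0.1 for each of HOXB5, HOXB6 and HOXB7, the smallest that 3 against 3 libraries allow.

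**Figure D2:**
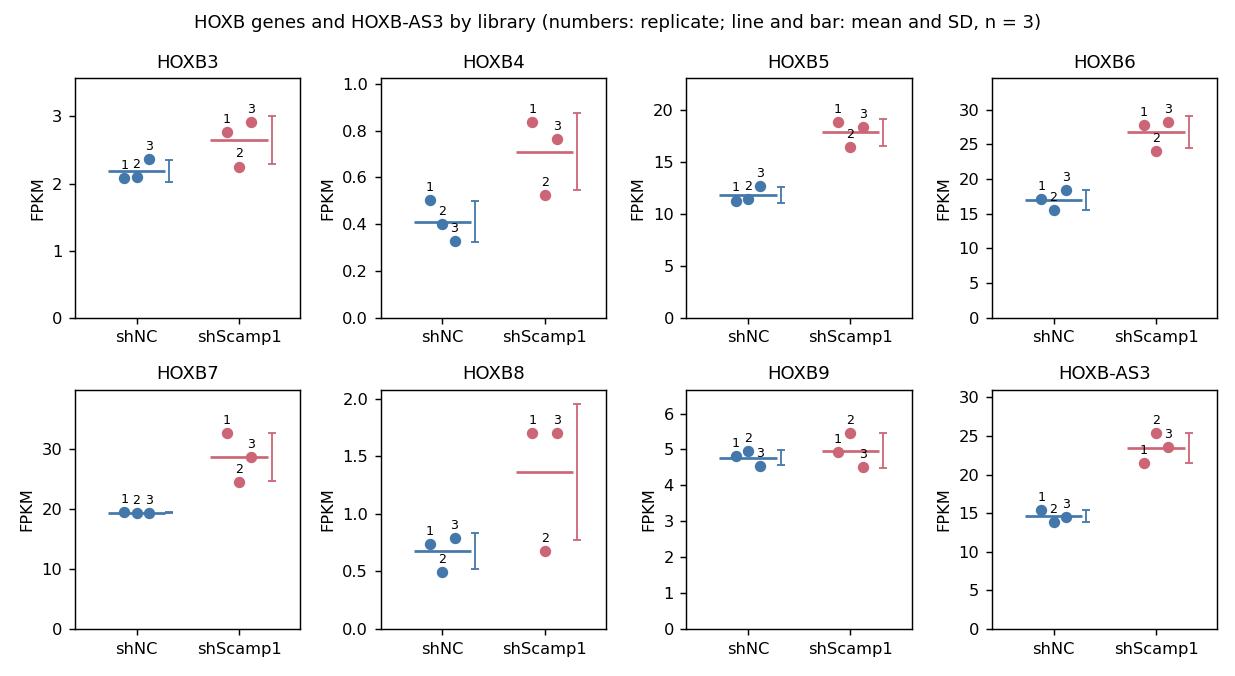
FPKM in each library for the 7 tested HOXB genes and the antisense transcript HOXB-AS3, with the replicate number above each point and the mean and SD (n = 3) as line and bar. In HOXB5, HOXB6, HOXB7 and HOXB-AS3 all shScamp1 libraries lie above all shNC libraries, while the HOXB9 groups overlap.

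The other tested HOXB genes also had log2 fold changes above 0 without passing. HOXB8 had the largest among the 21 tested HOX genes, 0.83 (95% interval -0.09 to 1.76, limma adjusted p = 0.198), from 0.738, 0.497 and 0.789 FPKM in shNC to 1.70, 0.677 and 1.70 FPKM in shScamp1. Its shScamp1 replicate 2 lay among the shNC libraries, and the gene had only 17 to 51 reads per library. Without shScamp1 replicate 2 its log2 fold change was 1.24 (adjusted p = 0.0132). HOXB4, which supports the renewal of blood stem cells, gave 0.504, 0.399 and 0.327 FPKM in shNC and 0.838, 0.525 and 0.764 FPKM in shScamp1 (log2 fold change 0.66, adjusted p = 0.205). Its groups did not overlap, and its reads were 19 to 46 per library. HOXB3 stood at 2.08, 2.09 and 2.37 FPKM in shNC and 2.77, 2.25 and 2.92 FPKM in shScamp1 (log2 fold change 0.26, adjusted p = 0.213, and 0.37 with adjusted p = 0.0353 without shScamp1 replicate 2). HOXB9, on the posterior side of these genes, had 4.81, 4.95 and 4.54 FPKM in shNC and 4.93, 5.46 and 4.50 FPKM in shScamp1. Its log2 fold change was 0.05 (95% interval -0.17 to 0.28, adjusted p = 0.730), an interval that ends below the lower bounds of HOXB5, HOXB6 and HOXB7, and its sign turned when FPKM was rescaled to total reads (-0.02).

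Ratios within a library do not depend on its scaling. Their numerators were taken as the called genes and HOXB9 as a gene that was not called, so they describe those calls and are no separate evidence. HOXB7 over HOXB9 was 4.05, 3.92 and 4.28 in shNC and 6.64, 4.51 and 6.39 in shScamp1. HOXB6 over HOXB9 was 3.55, 3.13 and 4.05 in shNC and 5.63, 4.41 and 6.29 in shScamp1. Neither ratio overlapped between the groups, with replicate 2 the lowest of the shScamp1 libraries in both. Each gave an exact two-sided permutation p = 0.1, the smallest possible with 3 against 3 libraries. HOXB6 over its HOXC paralogue HOXC6 was 7.10 ± 1.11 in shNC and 12.5 ± 1.43 in shScamp1 (SD, n = 3, exact permutation p = 0.1). HOXB5 over its HOXA paralogue HOXA5 was 5.68 ± 1.32 and 6.17 ± 0.698, which overlapped (exact permutation p = 0.5). In all, 7 ratios were computed, the other 3 being HOXB5, HOXB6 and HOXB7 over HOXC10, each with an exact permutation p = 0.1, so that none could pass a correction for the number of ratios.

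Summed over its genes, HOXB gave 56.2, 54.4 and 58.8 FPKM in shNC and 89.9, 74.3 and 85.5 FPKM in shScamp1. This is a mean of 56.5 ± 2.25 against 83.2 ± 8.05 FPKM (SD, n = 3), a ratio of 1.47, of which HOXB5, HOXB6 and HOXB7 made up 48.2 and 73.3 FPKM. HOXC gave 34.0 ± 0.772 and 35.2 ± 2.21 FPKM, HOXA 11.6 ± 0.757 and 11.4 ± 0.314 FPKM, and HOXD 0.427 ± 0.122 and 0.348 ± 0.111 FPKM, all of which overlapped between the groups. The share of HOXB in the summed HOX output was thus 55.1% in shNC and 63.9% in shScamp1, that of HOXC 33.2% and 27.1%, and that of HOXA 11.4% and 8.78%.

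**Figure D3:**
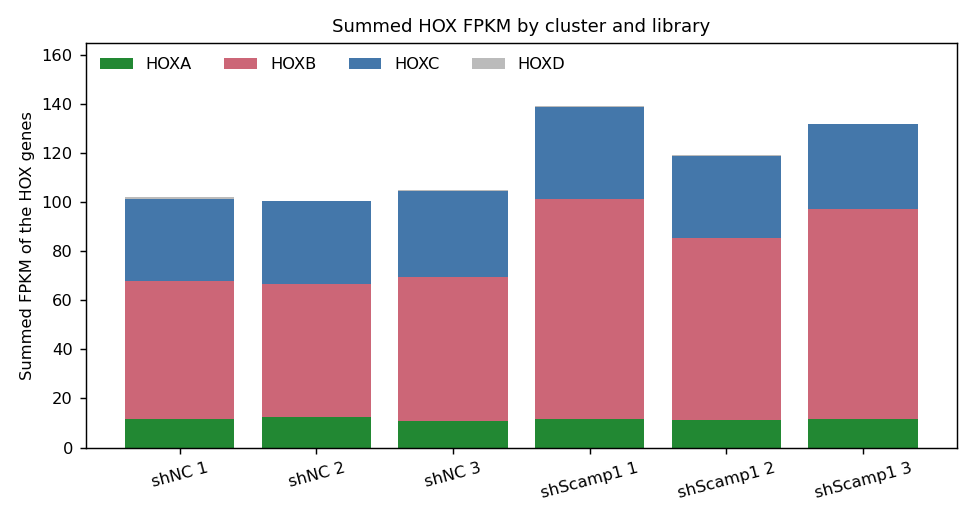
Summed FPKM of the HOX genes of each cluster in each of the 6 libraries, stacked, from 0. The HOXB part is between 54.4 and 58.8 FPKM in shNC and between 74.3 and 89.9 FPKM in shScamp1, while the HOXA and HOXC parts overlap between the groups and HOXD is too small to see.

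In HOXA none of the 7 tested genes passed. Log2 fold changes ran from -0.40 (HOXA9) to 0.44 (HOXA5), with a median of -0.24 and 6 of 7 below 0. HOXA5, which acts in the lung and foregut of the embryo, came nearest to a call, at 2.48, 2.14 and 1.78 FPKM in shNC and 2.73, 2.95 and 3.04 FPKM in shScamp1. The groups did not overlap (log2 fold change 0.44, 95% interval 0.12 to 0.76, adjusted p = 0.0800), and the adjusted p was 0.0490 when protein-coding genes alone were tested. HOXA9, an oncogene of acute leukaemia, stood at 0.812 FPKM in each of the 3 shNC libraries and at 0.701, 0.434 and 0.677 FPKM in shScamp1, on 18 to 41 reads (log2 fold change -0.40, adjusted p = 0.320). HOXA10, a regulator of the uterus and the highest HOXA gene, stood at 4.30, 5.00 and 3.77 FPKM in shNC and 4.23, 3.90 and 4.44 FPKM in shScamp1. Its groups overlapped, with a log2 fold change of -0.05 (95% interval -0.34 to 0.24, adjusted p = 0.816). HOXA11 at 1.46 ± 0.284 and 1.30 ± 0.192 FPKM overlapped too. HOXA3 and HOXA6 had shNC means of 0.734 and 0.719 FPKM on 7 to 62 reads per library, and their 95% intervals ran from -1.12 at the lowest to 0.63 at the highest, both in HOXA6.

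**Figure D4:**
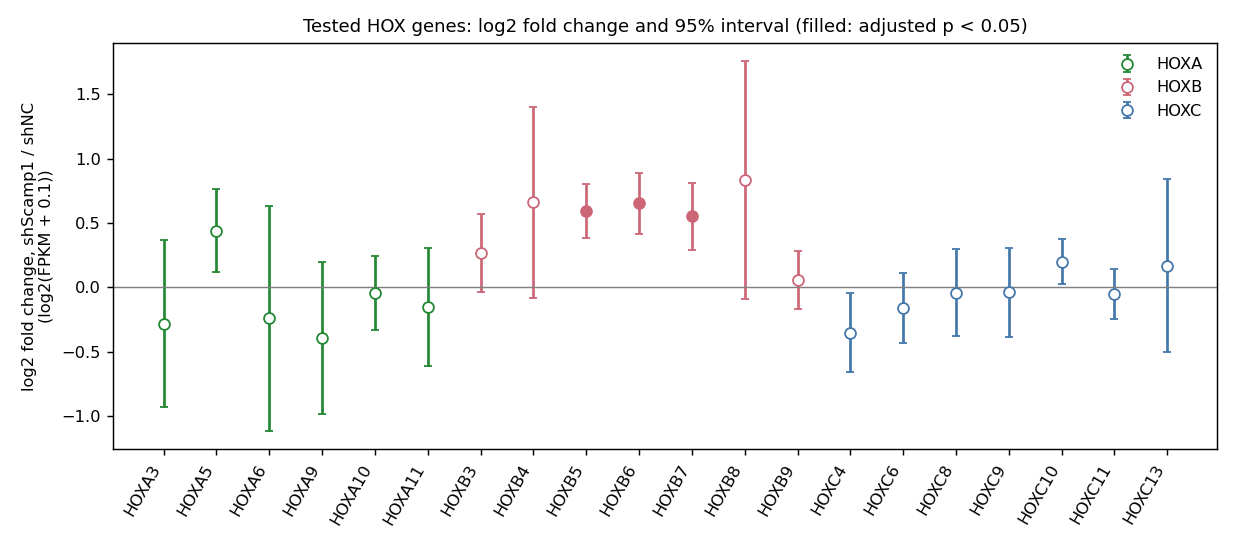
Log2 fold change of shScamp1 over shNC on log2(FPKM + 0.1) for 20 tested HOX genes, in cluster order, with 95% intervals from limma and filled points for an adjusted p under 0.05. HOXB5, HOXB6 and HOXB7 are the filled points, all 7 HOXB points lie above 0, and the widest intervals belong to genes with few reads.

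In HOXC none of the 7 tested genes passed, and the log2 fold changes lay between -0.35 and 0.20 with a median of -0.04. HOXC10, the third highest HOX gene and a regulator of the hindlimb and lower spinal cord, stood at 15.1, 16.1 and 15.4 FPKM in shNC and 18.7, 16.6 and 18.2 FPKM in shScamp1. These did not overlap, but the difference was small (log2 fold change 0.20 ± 0.07, SE, 95% interval 0.02 to 0.37, adjusted p = 0.122), and it passed only without shScamp1 replicate 2 (0.25, adjusted p = 0.0116) among the fits that left out a library. HOXC4 at the anterior end went the other way, from 2.50, 2.29 and 2.66 FPKM to 2.24, 1.80 and 1.76 FPKM (log2 fold change -0.35, 95% interval -0.66 to -0.05, adjusted p = 0.117). HOXC11 stood at 5.99, 6.10 and 6.74 FPKM in shNC and 6.35, 6.04 and 5.74 FPKM in shScamp1, with overlap (log2 fold change -0.05, 95% interval -0.25 to 0.14). HOXC6, HOXC8, HOXC9 and HOXC13 had log2 fold changes of -0.16, -0.04, -0.04 and 0.17 with adjusted p-values of at least 0.377. The upper bounds were 0.37 for HOXC10, 0.31 for HOXC9 and 0.84 for HOXC13, the tested gene of this cluster with the fewest reads.

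Between the outermost HOX genes of the clusters lie 59 other annotated genes, antisense, long noncoding, small and other RNAs among them, of which 17 were tested. HOXB-AS3 was the 1 of the 17 that was called, beside 14.0% of all genes tested, and none was called lower. This noncoding transcript, antisense to HOXB5 and HOXB6, stood at 15.4, 13.9 and 14.5 FPKM in shNC and 21.4, 25.4 and 23.5 FPKM in shScamp1. The groups did not overlap, and unlike in HOXB5 to HOXB7 replicate 2 was the highest shScamp1 library (log2 fold change 0.68 ± 0.09, SE, adjusted p = 0.00511, and 0.00207 without shScamp1 replicate 2). The sources do not state whether reads were counted by strand, and where they were not, reads from HOXB-AS3 and from the overlapping exons of HOXB5 and HOXB6 cannot be told apart. HOXB7 has no such overlap.

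The other tested noncoding genes of HOXB were not called and had log2 fold changes on both sides of 0. HOXB-AS2 stood at 0.373, 1.21 and 0.766 FPKM in shNC and 1.30, 2.25 and 1.38 FPKM in shScamp1, on 5 to 26 reads (log2 fold change 1.06, adjusted p = 0.140). HOXB-AS4, posterior to HOXB9, stood at 7.64, 8.70 and 8.51 FPKM in shNC and 4.81, 8.74 and 4.70 FPKM in shScamp1 (log2 fold change -0.50, adjusted p = 0.217). Here replicate 2 alone sat with the shNC libraries, and without it the log2 fold change was -0.79 (adjusted p = 0.00128). The lincRNA AC103702.2, between HOXB9 and HOXB13, stood at 10.6, 10.5 and 9.33 FPKM in shNC and 7.51, 7.37 and 8.86 FPKM in shScamp1 (log2 fold change -0.36, adjusted p = 0.0631, and 0.0482 with FPKM rescaled to total reads). In HOXC, HOTAIR, a noncoding RNA studied for its link to polycomb, stood at 5.89, 6.67 and 5.42 FPKM in shNC and 5.37, 3.62 and 6.07 FPKM in shScamp1, which overlap (log2 fold change -0.28, adjusted p = 0.383). In HOXA, HOTAIRM1 had 2.07 ± 0.228 and 1.69 ± 0.791 FPKM (adjusted p = 0.520), the latter with 0.781 FPKM in replicate 2. The tested genes HOXA10-AS, LINC02086, AC012531.1, AC012531.3, AC012531.4, HOXC-AS1, HOXC-AS2, HOXC-AS3 and MIR10B were not called either, with adjusted p-values from 0.144 (AC012531.3) to 0.813 (AC012531.1).

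The clusters also hold microRNA genes whose products are known to target HOX messages. Their mature sequences, from RefSeq on GRCh38.p14, are shown with the seed (bases 2 to 8) in capitals, because the sites they can pair with were sought in the HOX exons.
miR-196a-5p, from MIR196A1 in HOXB and MIR196A2 in HOXC: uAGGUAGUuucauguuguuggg
miR-196b-5p, from MIR196B in HOXA: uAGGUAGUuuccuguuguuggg
miR-10a-5p, from MIR10A in HOXB: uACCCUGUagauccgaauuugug

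Both miR-196 forms share 1 seed, and miR-10a has another. The complement of the miR-196 seed, ACTACCT, was found on the transcript strand at 14 places in the 3′ untranslated regions of 9 of 39 HOX genes, and in 10.1% of 19454 protein-coding genes, whose regions differ in length. Of the 9 genes, 6 were tested. Among these, HOXB6 and HOXB7, which are neighbours in HOXB, were called higher. The others, which include HOXA5, HOXA9 and HOXC8, were not called. HOXB5, which was called and lies in the same stretch, had no such match. Only exact matches were sought, so the lack of one, here or in HOXB8, does not show that no pairing occurs. Of all genes tested, 8.82% were called higher, and the 6 tested genes with a match are too few to be read against that share. The complement of the miR-10 seed, ACAGGGT, was found in 3 HOX genes, HOXA3 and HOXB3 among them, none of which was called. It was found in 15.2% of the 19454 protein-coding genes. The matches in the called genes are written on the transcript strand of GRCh38 with the seed match in capitals.
HOXB6 site, chr17:48595934-48595956: ctggaaggagcacatACTACCTa
HOXB7 site, chr17:48607614-48607636: caacactgaaaaaatACTACCTa

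A match is a description of the sequence and no evidence of a site in use. The libraries did not measure mature microRNAs. The row of the MIR196A1 gene held 9 to 16 reads per library, at 12.5 ± 1.72 FPKM in shNC and 11.0 ± 2.40 FPKM in shScamp1, which overlap (log2 fold change -0.19, adjusted p = 0.50). MIR196A2 had at most 7 reads and was not called (log2 fold change -2.66, limma adjusted p = 0.152), and its groups overlapped. MIR10A and MIR196B were listed at 0.

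Genes within 500 kb outside the clusters, a distance chosen after the values were seen, were called in both directions. Of 37 tested, 3 were higher and 5 lower, against 8.82% higher and 5.17% lower of all genes. Beside HOXB, 2 of 10 tested genes were higher and none lower, too few to be read against that background. These were NFE2L1, a transcription factor of proteasome genes, on the anterior side (34.3 ± 0.905 to 44.5 ± 4.81 FPKM, log2 fold change 0.37, adjusted p = 0.0436) and CALCOCO2, a receptor of selective autophagy, on the posterior side (4.08 ± 0.155 to 5.15 ± 0.162 FPKM, 0.33, adjusted p = 0.0305). Beside HOXC, 1 was higher and 3 lower of 21.

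Genes that work with or upstream of the HOX clusters were taken as lists. Of the 9 TALE cofactors, 7 were tested and none was called at an adjusted p under 0.05. Of all genes tested, 14.0% were called, and 7 genes are too few to be read against that share. PBX2 at 8.03 ± 0.601 and 5.60 ± 1.17 FPKM (log2 fold change -0.53, adjusted p = 0.0828) and MEIS2 at 0.768 ± 0.0371 and 1.19 ± 0.0661 FPKM (0.57, adjusted p = 0.0566) came nearest, in opposite directions, and neither overlapped between the groups. A lack of overlap was found for 41.4% of all genes tested. Among the 6 ParaHox genes, the sister family of the HOX genes, CDX2 and PDX1 were tested and the other 4 were listed at 0. CDX2, which specifies intestinal fate and activates HOX genes in the embryo, stood at 22.6 ± 1.16 FPKM in shNC and 19.4 ± 0.973 FPKM in shScamp1, without overlap (log2 fold change -0.22, adjusted p = 0.0965). CDX2 was called with FPKM rescaled to total or to non-mitochondrial reads and without shScamp1 replicate 2. EVX1 and EVX2, at the ends of HOXA and HOXD, did not exceed 0.0772 FPKM.

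The trithorax and COMPASS complexes keep HOX chromatin open. Their list of 17 genes also held genes outside these complexes, such as MLLT3. Of the 17, 1 was called higher and 2 lower, which is 17.6% beside the 14.0% of all genes called, with a median log2 fold change of 0.16. These were MLLT3, a subunit of the super elongation complex (0.48, adjusted p = 0.0370), WDR5, a core subunit of the histone methyltransferases (-0.38, adjusted p = 0.0367), and MEN1, the menin cofactor of KMT2A (-0.35, adjusted p = 0.0465). Of 30 polycomb genes, which keep HOX chromatin closed, 1 was higher and 1 lower, which is 6.67%, with a median of -0.12. BMI1, a subunit of the repressive complex PRC1, rose from 11.8 ± 0.597 to 15.9 ± 0.537 FPKM (0.43, adjusted p = 0.0115), and CBX2, its chromodomain partner, fell from 14.1 ± 0.728 to 11.3 ± 0.563 FPKM (-0.32, adjusted p = 0.0367). All 5 of these calls were lost without shNC replicate 1, without shNC replicate 3 and without shScamp1 replicate 3. Without shScamp1 replicate 2 the polycomb list had 9 calls. That fit called 4374 genes in all, against 2177 with all 6 libraries. None of the 8 genes of CTCF and cohesin, which divide the clusters into domains, was called, with a median of 0.17.

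The retinoic acid list had more calls, with 5 of 14 tested genes higher and none lower, a share of 35.7% beside the 8.82% of all genes called higher, and a median log2 fold change of 0.19. The lists were chosen with earlier results of these data known, so such shares are no independent evidence. Without shScamp1 replicate 2 the retinoic acid list had 10 calls, where 4374 genes were called in all against 2177 with all 6 libraries. ALDH1A3, which makes retinoic acid from retinal, stood at 3.54, 3.35 and 3.53 FPKM in shNC and 10.7, 7.29 and 9.37 FPKM in shScamp1 (log2 fold change 1.35 ± 0.14, SE, adjusted p = 0.00263). The same reaction is catalysed by ALDH1A1, which went from 110.3 ± 1.52 to 222.5 ± 33.7 FPKM (1.00, adjusted p = 0.00438), and ALDH1A2, from 2.93 ± 0.196 to 4.62 ± 0.221 FPKM (0.64, adjusted p = 0.00618). DHRS3, which reduces retinal back to retinol, rose from 11.1 ± 0.297 to 20.3 ± 2.58 FPKM (0.85, adjusted p = 0.00389), so the called genes include 1 that works against the synthesis. The fifth was the receptor RARB, itself a target of retinoic acid (0.73, adjusted p = 0.00633). In all 5 every shScamp1 library lay above every shNC library. These genes were picked as called, so this describes the calls and is no separate evidence. The groups did not overlap for 41.4% of all genes tested. CRABP1, a carrier of retinoic acid, had a log2 fold change of -1.28 (adjusted p = 0.0560), on 6 to 40 reads per library, and the receptors RARA, RARG, RXRA and RXRB were not called. Whether these genes bear on the HOXB genes was not tested. The epithelial markers moved in the same libraries, with 5 of 9 tested genes of the gastric list higher (KRT18, GATA6, KRT8, KRT19 and CDH1, of which the keratins and CDH1 mark epithelia in general), beside 8.82% of all genes, and the intestinal marker VIL1 lower (log2 fold change -1.51, adjusted p = 0.00162). CDH1 was no longer called without any 1 of the shNC libraries (adjusted p = 0.108 to 0.123) or without shScamp1 replicate 3 (adjusted p = 0.0740). With no filter on low values KRT8, KRT19 and CDH1 were not called (limma adjusted p = 0.141, 0.252 and 0.0607). KRT19 and CDH1 were not called with the replicate block either (0.0572 and 0.0787). The part of these markers in the HOXB values was not tested.

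**Figure D5:**
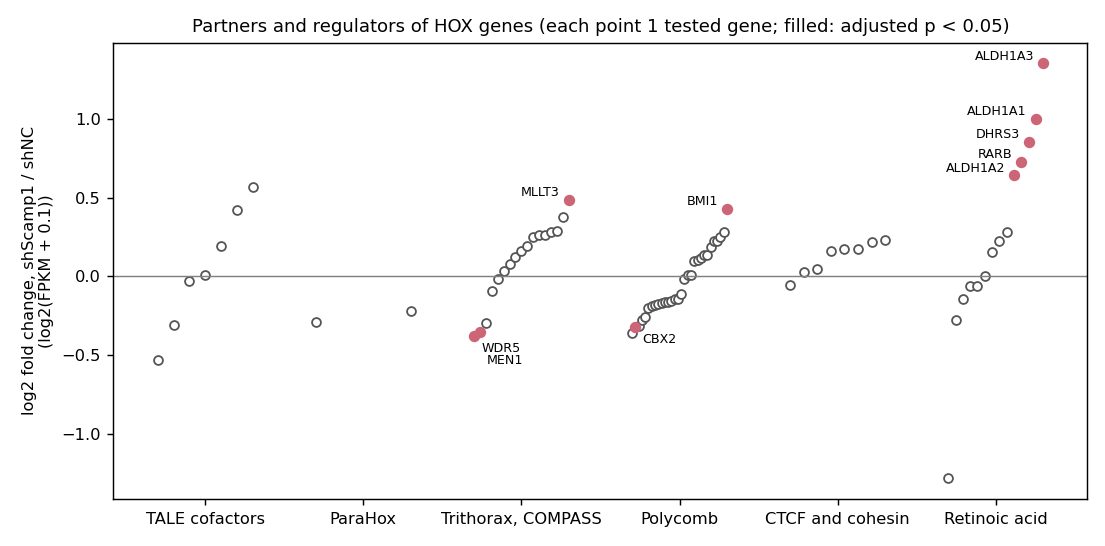
Log2 fold change of shScamp1 over shNC on log2(FPKM + 0.1) for each tested gene of 6 lists of partners and regulators of HOX genes, sorted within a list, with filled and named points for an adjusted p under 0.05. The retinoic acid list has 5 filled points, all above 0, and the TALE, ParaHox and CTCF and cohesin lists have none. Of all genes tested, 14.0% were called.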

How the data were processed

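The data were 1 table of gene FPKM for 6 libraries of NCI-N87 cells, 3 shNC and 3 shScamp1. The FPKM values were made by the authors and deposited after normalization to gene length and library. The submitters' processing notes name HISAT2 2.0.5, featureCounts 1.5.0-p3, DESeq2 1.20.0 and the build hg38, and the strand setting and read length are not given in the sources used here. All FPKM values were whole multiples of 1 read per library and gene length (tolerance 0.01), which gave the reads quoted as depth. Gene coordinates and lengths of all 39 HOX genes equalled those of GENCODE 29.

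Rows averaging 0.5 FPKM or more over the 6 libraries were tested with limma 3.58.1 in R 4.3.3 (lmFit, then eBayes with trend) on log2(FPKM + 0.1), without covariates, and adjusted by Benjamini-Hochberg over 15556 genes. This scale understates the change of low genes. The script was tested on simulated data. The HOX genes were taken by biotype and symbol, and all were accounted for, with full statistics for those under an adjusted p of 0.05 and the 5 with the highest mean. Other genes inside the clusters were named when tested, and up to 4 called genes per list by smallest p, RARB and CDH1 being added after their values were seen. The members and lists were chosen with earlier results of these data known. Homeoboxes were located in the coding sequence by the conserved motif of the recognition helix, and seed matches in the 3′ untranslated regions. Alternatives covered the pseudocount, the filter, scaling, the trend, protein-coding genes, voom on the recovered reads, the replicate block and each library left out. One member of HOXA and 1 sequence are not reported here.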

Additional observations from a re-analysis of the deposited data

How the results depend on the processing

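Across the 16 alternative settings, 308 of 329 values of single HOX genes kept their direction and side of the threshold, and HOXB6 stayed under an adjusted p of 0.05 in 17 of 17 fits (log2 fold change 0.58 to 0.72), HOXB5 in 16 of 17 and HOXB7 in 12 of 17. The highest limma adjusted p-values were 0.0495 for HOXB6, 0.0501 for HOXB5 and 0.0931 for HOXB7, so HOXB6 and HOXB5 differ little in this. With a replicate block, 958 genes were called against 2177, and 2 HOX genes against 3, HOXB7 having an adjusted p of 0.0579. Replicate numbers did not pair the samples (correlations of same-numbered deviations -0.035, 0.032 and 0.067). Leaving out each library gave 817 to 4374 called genes, the highest without shScamp1 replicate 2, and 1 to 6 called HOX genes, of which 0 to 1 passed a fold of 2. The median log2 fold change of the HOX genes was -0.055 to 0.054 over these fits, 0.054 with no filter on low values and 0.054 with a mean of at least 1 FPKM, where the set tested differed, and -0.11 scaled to total or to non-mitochondrial reads, for which the median of all genes was -0.095 and -0.087. The HOXA sum had a log2 ratio of -0.17 in reads not scaled to gene length and -0.03 in FPKM. Higher calls were 46.3% of all calls scaled to non-mitochondrial reads, 73.5% with the replicate block and 52.5% without shScamp1 replicate 2. The polycomb, trithorax and gastric lists had 0, 0 and 3 calls with the replicate block. The on genes numbered 25 at 0.1 FPKM and 14 at 1 FPKM.

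Signs turned for genes whose change was near 0, and also for HOXA6 and HOTAIRM1, which were at -0.24 and -0.39 with all 6 libraries. HOXB9 was -0.020 scaled to total reads and -0.012 to non-mitochondrial reads, and HOXC-AS2 -0.015 and -0.0074. Leaving out each library gave ranges of -0.49 to 0.016 for HOXA6, -0.15 to 0.054 for HOXA10 (0.0013 without shScamp1 replicate 2), -0.016 to 0.12 for HOXB9, -0.18 to 0.037 for HOXC8, -0.17 to 0.072 for HOXC9, -0.63 to 0.058 for HOTAIRM1, -0.024 to 0.10 for HOXC-AS2 and -0.12 to 0.35 for AC012531.1. The cause was not tested. The 18 untested HOX genes fell below the filter of 0.5 FPKM, which is scaled to gene length, and had 0 to 27 reads per library. Depth alone did not set which genes were tested. HOXA13, untested, had 5 to 27 reads per library, and HOXA6, tested, had 7 to 19.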
